A study of Saccharomyces cerevisiae with 3 samples.

Results

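Antioxidant and NADPH supply genes of budding yeast, Saccharomyces cerevisiae, were followed in cells exposed to caspofungin. The set was 35 genes, out of 6174 genes on the arrays: the glutathione, glutaredoxin, thioredoxin and peroxiredoxin systems, superoxide dismutases, catalases, 3 reductases, and the dehydrogenases of the pentose phosphate pathway that make NADPH. They were chosen by function, through the locus tag of each row, and all 35 were found on the arrays.

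Treated and untreated cells came from one strain, labelled WSC1extMID2cyt, in the BY4741 background, grown in rich medium (YEPD) at 24 °C. Treated cells received 15 ng/ml caspofungin, an echinocandin that inhibits synthesis of the wall polymer beta-1,3-glucan, for 2 hours. Untreated cells of the same culture went on growing without the drug. Each 2-colour array compared treated with untreated cells, and arrays numbered 1, 2 and 4 were analysed here. RNA of treated cells carried Cy3 on array 1, and Cy5 on both other arrays. No array held BY4741 without the WSC1extMID2cyt change, so the values say nothing of what that change does. BY4741 is a laboratory strain of mating type a. Of 7 genes specific to that mating type, 3 had a value (STE2, BAR1 and MFA2). Of 4 genes specific to the opposite type 0 had one. Among all genes 43.7% had a value, and ratios give no level, so these counts do not test the mating type.

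Yeast detoxifies peroxides through cysteine-containing peroxidases that are re-reduced by thioredoxin or glutathione, and through catalases. Thioredoxin reductase and glutathione reductase draw their electrons from NADPH, which the oxidative pentose phosphate pathway and cytosolic aldehyde and isocitrate dehydrogenases supply. Many of these genes are known targets of the transcription factors Yap1 and Skn7, and some also of the general stress factors Msn2 and Msn4.

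Values are log2 ratios of the 2 channels as deposited, with base 2 assumed. The sources used here do not say whether a positive value means more or less RNA in the caspofungin-treated cells, so only the side of 0, positive or negative, is given for a gene. Turning the sign would swap the sides. Array 1, with its dyes swapped, was read as deposited; were its sign alone to be turned, the mean of GTT1 would be 0.62, that of GRE2 -0.16, that of GND2 -0.046 and that of CCP1 0.15. In bulk RNA, a change in how many cells express a gene and a change in RNA per cell cannot be told apart. The arrays were not equal. Array 1 held a value for 2520 genes, array 2 for 1924 and array 4 for 741. For the 585 genes that all 3 arrays covered, Pearson's r across genes, which are not independent replicates, was 0.50 for arrays 1 and 2, 0.53 for arrays 2 and 4, and 0.049 for arrays 1 and 4. Their median ratio was -0.14 for arrays 1 and 2 alike and 0.092 for array 4. Where counting from these medians instead of from 0 moved a gene to another side, this is stated beside it.

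Among the 35 genes, 10 had a value on all 3 arrays, 12 on arrays 1 and 2 only, and 2 on a single array. At least 1 value was thus present for 24 of 35 genes (68.6%), against 43.7% of all genes, at least 2 values for 22 (62.9%), against 30.8%, and all 3 for 10 (28.6%), against 9.48%. The 11 genes without a value were GTT2, GSH2, GPX1, GPX2, GRX1, GRX4, TRX1, TRX3, CTT1, CTA1 and ZWF1. Both catalases and glucose-6-phosphate dehydrogenase (ZWF1), which opens the oxidative pentose phosphate pathway, were therefore not measured, nor was the second enzyme of glutathione synthesis (GSH2).

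The antioxidant genes did not lie on one side as a set. The 10 genes on all 3 arrays had a median of mean log2 ratios of -0.011, against -0.070 over all 585 genes. One side was kept on all 3 arrays by 2 of the 10 genes, GTT1 (positive) and CCP1 (negative), against 47.2% of all genes (18.1% positive and 29.1% negative). Among the 12 genes on arrays 1 and 2 only, 6 were positive and 5 negative on both arrays, against 18.9% and 53.8% (72.7% together) of the 1278 genes measured on that pair. Counted from the array medians, 6 of the 12 were positive and 3 negative, against 27.3% and 40.2%. Among genes with at least 2 values, the highest means belonged to GTT1 and GRE2, followed by PRX1, TSA2 and GND2. The lowest belonged to GND1, GRX3 and CCP1, and counted from the array medians CCP1 came before GRX3.

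**Figure D1:**
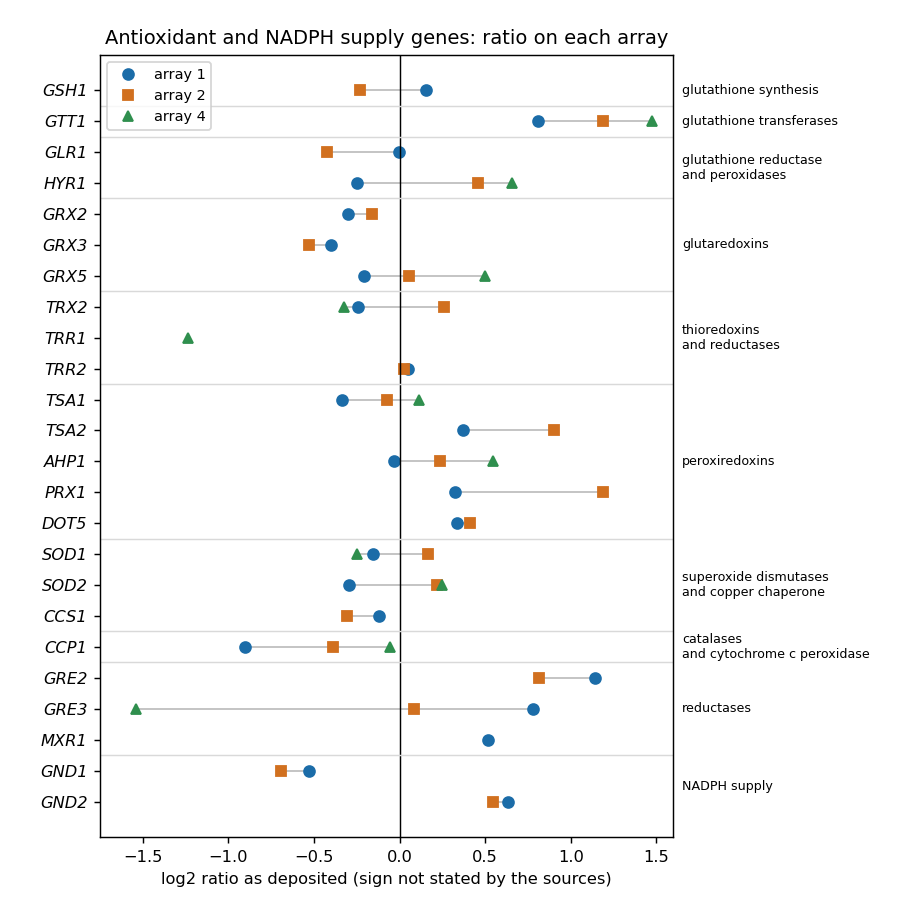
Log2 ratio as deposited (horizontal axis) of the 24 antioxidant and NADPH supply genes with a value, grouped by role, on array 1 (circles), array 2 (squares) and array 4 (triangles). GTT1 lies at 0.81 or above on every array, GND1 and GND2 lie on opposite sides, and GRE3 runs from -1.54 to 0.78.

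No gene of the set passed the test. Limma's moderated test of each ratio against 0, run for both possible assignments of arrays to cultures with the larger p kept, called 0 of the 10 genes on all arrays at an adjusted p under 0.05, and called 0 of 585 genes overall (0%). At an unadjusted p under 0.05 there was 1 of the 10, GTT1, against 11.5% of all genes. All p-values below come from limma with Benjamini-Hochberg adjustment over every gene in the fit. A gene that missed the threshold is not shown to be unaffected: the 95% intervals of the mean log2 ratio, taken as the widest span over both assignments, reached from -0.73 to 0.63 even for TSA1, 1 of the least scattered genes.

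Of the glutathione genes, GTT1 lay farthest from 0. It encodes a glutathione transferase associated with the endoplasmic reticulum, which joins glutathione to electrophilic compounds. Array 1 gave a log2 ratio of 0.81, array 2 one of 1.19 and array 4 one of 1.48. The arrays were on one side, and the mean of 1.16 ± 0.34 (SD, n = 3 arrays) is a 2.23-fold ratio, 17th from the positive end among 585 genes. Its 95% interval ran from 0.53 to 1.94, and its adjusted p was 0.285 by limma. In a fit that counted every array as a separate replicate and took in the 1899 genes with at least 2 values, its adjusted p was 0.032. That fit called 1 of 22 genes of this set, against 2.53% of all genes. Over the 585 genes on all arrays, separate replicates called 0 of the 10 genes, against 0.342% of all. These p-values are too small, since array 1 shared a culture with array 2 or array 4.

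HYR1, also called GPX3, encodes the thiol peroxidase that senses hydrogen peroxide and passes the signal to Yap1. It had -0.25 on array 1, 0.46 on array 2 and 0.66 on array 4, a mean of 0.29 ± 0.48 (SD, n = 3 arrays, limma adjusted p = 0.642). Array 1 was on the other side from arrays 2 and 4. GSH1, which encodes the first enzyme of glutathione synthesis, had 0.15 on array 1 and -0.23 on array 2. Glutathione reductase, GLR1, had -0.0035 on array 1 and -0.43 on array 2, both negative, but on array 1 above that array's median. Neither gene of glutathione synthesis and recycling with a value held a side by both counts.

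Glutaredoxins are small enzymes that use glutathione to reduce disulfides or to carry iron-sulfur clusters. GRX2, the main dithiol glutaredoxin, had -0.30 on array 1 and -0.16 on array 2. GRX3, a monothiol glutaredoxin that acts in iron sensing, had -0.40 and -0.53 on the same arrays. Both genes were on the negative side of 0 and of the array medians on both arrays, a position that 53.8% and 40.2% of genes measured on that pair shared. Those medians are of the 585 genes on all arrays. The median of all values on array 2 was -0.22, and GRX2 lay above it. The mean of GRX2 was 961st from the positive end among the 1863 genes measured on both arrays. GRX5, the mitochondrial glutaredoxin of iron-sulfur cluster assembly, had -0.21 on array 1, 0.055 on array 2 and 0.50 on array 4 (mean 0.12 ± 0.36, SD, n = 3 arrays, limma adjusted p = 0.823). Its arrays disagreed in side.

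In the thioredoxin system, TRX2, a cytosolic thioredoxin and well-known Yap1 target, had -0.24 on array 1, 0.26 on array 2 and -0.32 on array 4. Its arrays fell on both sides, with a mean of -0.10 ± 0.32 (SD, n = 3 arrays, limma adjusted p = 0.995). TRR2, the mitochondrial thioredoxin reductase, had 0.051 on array 1 and 0.027 on array 2, the smallest spread in the set (SD 0.017). TRR1, the cytosolic reductase on which both cytosolic thioredoxins depend, had a value on array 4 alone, of -1.24. This single value has no replicate check.

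All 5 peroxiredoxins were measured, and they did not share one side. Peroxiredoxins reduce peroxides through a reactive cysteine and, for most of them, take electrons from thioredoxin. PRX1, the mitochondrial member, had 0.32 on array 1 and 1.19 on array 2 (mean 0.76 ± 0.61, SD, n = 2 arrays). TSA2, a cytosolic member that is the close relative of TSA1, had 0.37 and 0.90 on the same arrays (mean 0.64 ± 0.38, SD, n = 2 arrays). DOT5, the nuclear member, had 0.34 and 0.41 (mean 0.38 ± 0.054, SD, n = 2 arrays). These 3 genes were positive on both arrays, and array 2 was the higher one in each.

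The remaining peroxiredoxin genes were measured on all arrays. TSA1, the most abundant cytosolic peroxiredoxin, had -0.34 on array 1, -0.074 on array 2 and 0.11 on array 4 (mean -0.099 ± 0.22, SD, n = 3 arrays, limma adjusted p = 0.993). AHP1, which prefers alkyl hydroperoxides, had -0.035 on array 1, 0.23 on array 2 and 0.55 on array 4 (mean 0.25 ± 0.29, SD, n = 3 arrays, limma adjusted p = 0.658). Counted from the array medians AHP1 was positive on all 3 arrays, as were 22.2% of all genes, and TSA1 still lay on both sides.

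The superoxide dismutases lay near 0. SOD1, the copper and zinc enzyme of the cytosol, had -0.16 on array 1, 0.16 on array 2 and -0.25 on array 4, with a mean of -0.081 ± 0.22 (SD, n = 3 arrays, limma adjusted p = 0.993). SOD2, the manganese enzyme of mitochondria, had -0.29 on array 1, 0.22 on array 2 and 0.25 on array 4, with a mean of 0.059 ± 0.31 (SD, n = 3 arrays, limma adjusted p = 0.957). Each gene had arrays on both sides, and the 95% intervals ran from -0.80 to 0.55 for SOD1 and from -0.57 to 0.78 for SOD2. CCS1, the chaperone that loads copper into Sod1, had -0.12 on array 1 and -0.30 on array 2, with array 1 slightly above its array median.

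CCP1, the cytochrome c peroxidase of the mitochondrial intermembrane space, was the only gene of the set on the negative side of all 3 arrays. It had -0.90 on array 1, -0.39 on array 2 and -0.056 on array 4. Its mean was -0.45 ± 0.43 (SD, n = 3 arrays, limma adjusted p = 0.642), 96th from the negative end of 585 genes. The sides agreed also when counted from the array medians, as was the case for 22.1% of all genes on the negative side.

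**Figure D2:**
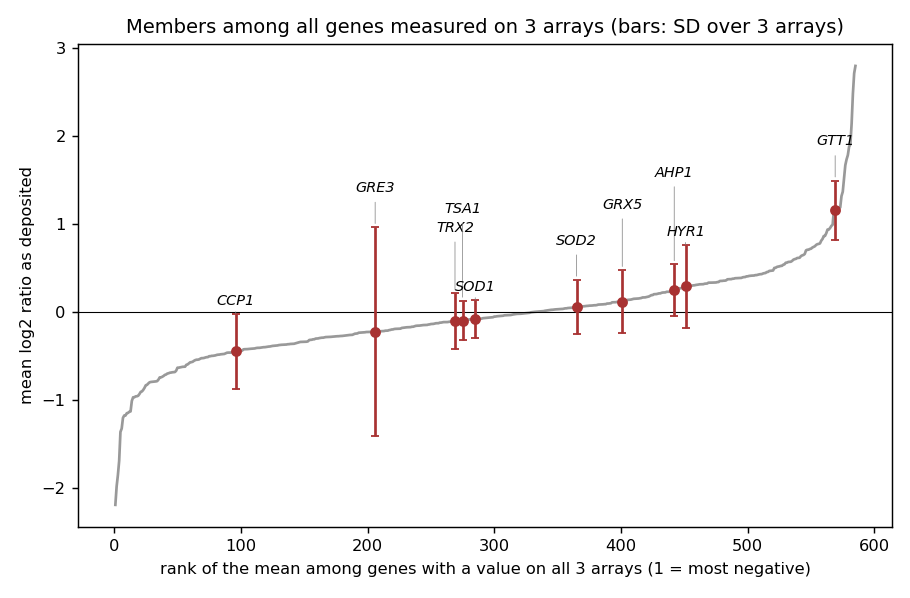
Mean log2 ratio as deposited of the 585 genes that all 3 arrays covered, in rank order (grey line), with the 10 antioxidant genes among them (points, bars are the SD over 3 arrays). GTT1 ranks 17th from the positive end and CCP1 96th from the negative end, and the bars of the other 8 genes reach across 0.

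Reductases of the set act on aldehydes, ketones and oxidised methionine. GRE2, an NADPH-dependent methylglyoxal reductase, had 1.14 on array 1 and 0.81 on array 2, with no value on array 4. Both values were positive, and the mean of 0.98 ± 0.23 (SD, n = 2 arrays) was 63rd from the positive end among the 1863 genes measured on both arrays. Its limma adjusted p was 0.102 in the fit over genes with at least 2 values. On arrays 1 and 2 alone it was 0.013, and GTT1 had 0.011 there. That fit called 2 of 22 genes of the set, against 11.2% of all genes, and if both arrays came from one culture it covers technical spread only.

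GRE3, an aldose reductase that also uses NADPH, gave the widest spread. It had 0.78 on array 1, 0.083 on array 2 and -1.54 on array 4. Arrays 1 and 4 lay on opposite sides, and the mean of -0.22 ± 1.19 (SD, n = 3 arrays, limma adjusted p = 0.781) describes no single array. The median SD of the 10 genes was 0.33, against 0.34 over all 585 genes, and the SD of GRE3 was the highest of the 10. MXR1, which reduces oxidised methionine in proteins, had a value on array 1 alone, of 0.51.

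The NADPH-making enzyme 6-phosphogluconate dehydrogenase is encoded by a major gene, GND1, and a minor one, GND2, and these lay on opposite sides. GND2 had 0.64 on array 1 and 0.54 on array 2, while GND1 had -0.53 on array 1 and -0.69 on array 2. Within an array, GND2 exceeded GND1 by 1.16 on array 1 and by 1.24 on array 2, a mean difference of 1.20 ± 0.054 (SD, n = 2 arrays). This difference does not depend on how an array was centred, but it does depend on the sign of array 1. With array 1 turned, the mean would be -0.046 for GND2 and -0.084 for GND1. Neither gene passed limma's test over genes with at least 2 values, where the adjusted p was 0.196 for GND2 and 0.189 for GND1. An exact two-sided sign-flip test over 2 arrays cannot go below a p of 0.5, and no other test of the difference was run.

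TSA2 and TSA1 gave a like picture within arrays. The TSA2 ratio exceeded the TSA1 ratio by 0.70 on array 1 and by 0.98 on array 2 (mean 0.84 ± 0.19, SD, n = 2 arrays). SOD2 and SOD1 did not separate: the SOD2 ratio minus the SOD1 ratio came to -0.14 (array 1), 0.056 (array 2) and 0.50 (array 4) (mean 0.14 ± 0.33, SD, n = 3 arrays). GTT1 and HYR1 are next to each other on their chromosome, and GTT1 exceeded HYR1 by 1.06, 0.73 and 0.82 on arrays 1, 2 and 4 (mean 0.87 ± 0.17, SD, n = 3 arrays), where the smallest exact p is 0.25. These pairs were set side by side after their values were seen. Probe sequences were not used here, so close relatives such as GND1 and GND2, or TSA1 and TSA2, may share signal.

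**Figure D3:**
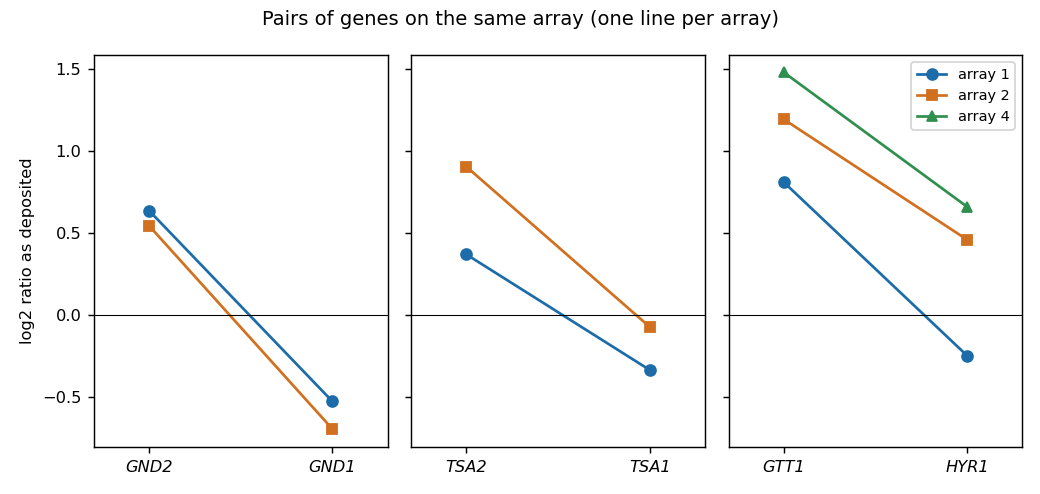
Log2 ratio as deposited (vertical axis) of GND2 and GND1, TSA2 and TSA1, and GTT1 and HYR1, with a line for each array on which both genes had a value. Every line slopes down from the first gene to the second, by 0.70 to 1.24, and GND2 and GND1 lie on opposite sides of 0 on both arrays.

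Among the 10 genes on all arrays, array 1 tended to hold the lowest ratio of a gene. It was the lowest of the 3 arrays for 7 of the 10 genes on all arrays (GTT1, HYR1, GRX5, TSA1, AHP1, SOD2 and CCP1), against 42.6% of all genes. Array 2 was above array 1 for 9 of the 10, all but GRE3, against 50.8% of all genes. The 10 genes had a median log2 ratio of -0.22 for array 1, 0.19 for array 2 and 0.18 for array 4, against -0.14, -0.14 and 0.092 over all 585 genes. The 12 genes on arrays 1 and 2 only went the other way, with a median of 0.10 for array 1 and -0.068 for array 2. Over the 1278 genes measured on that pair alone, the medians were -0.17 and -0.26. Array 1 is also the array with the dyes the other way round, and the part of the dye in these values was not tested.

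On arrays 1 and 2, 22 genes of the set could be set against each other. Of these, 15 lay on one side on both arrays, against 72.3% of 1863 genes, and 13 of the 22 genes with at least 2 values kept one side on every array measured, against 64.4% of 1899 genes. Those with ratios above 0.5 in size on both were GTT1, GRE2 and GND2, all positive, and GND1, which was negative. None of the 22 genes reached 2-fold on every array measured, against 2.69% of 1899 genes (1.84% positive and 0.843% negative). At 1.5-fold there were 2, GTT1 and GRE2, both positive, against 4.16% (positive) and 4.9% (negative) of all genes.

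**Figure D4:**
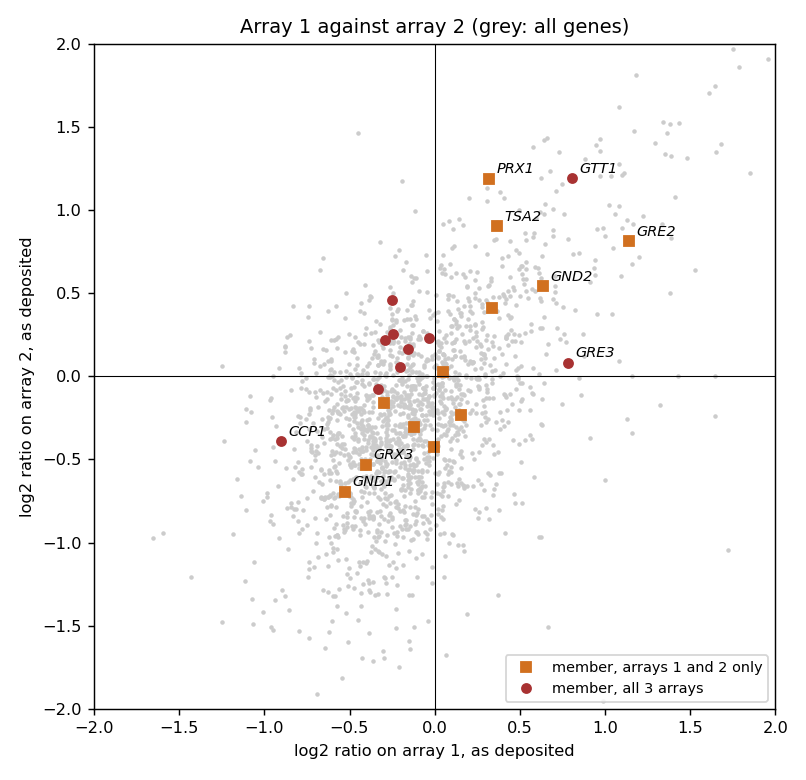
Log2 ratio as deposited on array 1 (horizontal axis) and array 2 (vertical axis) of 1863 genes (grey, 39 of them outside the axes), with the 12 antioxidant and NADPH supply genes measured on arrays 1 and 2 only (squares) and the 10 on all 3 arrays (circles). GTT1, GRE2, PRX1, TSA2 and GND2 lie in the upper right and GND1, GRX3 and CCP1 in the lower left, while 6 of the genes on all 3 arrays are negative on array 1 and positive on array 2.

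A further 64 genes that work beside the set were listed by role, and 21 of them had at least 2 values. None of the 14 measured on all arrays passed limma's test over all 585 genes. Of the 21, 9 were positive and 4 negative on all arrays measured (18.5% and 45.9% of all genes), with a median of mean log2 ratios of 0.0047 against -0.19 over all 1899 genes. Counted from the array medians, 9 were positive and 2 negative (25.5% and 34.7% of all genes), as DUG2 and CAD1 left the negative side.

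Of 10 genes listed under aldo-keto, old yellow enzyme and other reductases, 8 had a value and 5 at least 2 values. These 5 were positive on every array measured, against 18.5% of all genes (25.5% counted from the array medians, where the 5 were positive too), with a median of mean log2 ratios of 0.70. None of the 4 tested on all arrays passed. YDL124W, an aldo-keto reductase gene, had 0.70 on array 1, 0.47 on array 2 and 1.81 on array 4 (mean 0.99 ± 0.72, SD, n = 3 arrays, limma adjusted p = 0.406). ADH6, an NADPH-dependent alcohol dehydrogenase gene, had 0.40, 0.50 and 1.34 on arrays 1, 2 and 4 (mean 0.75 ± 0.52, SD, n = 3 arrays, limma adjusted p = 0.406). ARA1, the arabinose dehydrogenase gene, averaged 0.70 ± 0.34, and OYE2, an old yellow enzyme gene, 0.47 ± 0.29 (SD, n = 3 arrays each). YPR1 had 0.33 on array 1 and 0.032 on array 2. A value on array 1 alone was present for the other 3, and it was -0.51 for GCY1, -0.73 for YJR096W and 0.28 for OYE3. YDL124W was named by size, and the other reductases after their values were seen.

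Among further genes of the pentose phosphate pathway and other NADPH supply, 8 had at least 2 values, all of them measured on all 3 arrays. On every array 1 of the 8 was positive and 1 negative, against 18.1% and 29.1% of all genes. The positive one was ALD6, the cytosolic aldehyde dehydrogenase, with 1.05 on array 1, 0.77 on array 2 and 0.47 on array 4 (mean 0.76 ± 0.29, SD, n = 3 arrays, limma adjusted p = 0.409). The negative one was TAL1, the transaldolase of the pentose phosphate pathway, with -0.17, -0.55 and -0.62 on arrays 1, 2 and 4 (mean -0.45 ± 0.24, SD, n = 3 arrays, limma adjusted p = 0.539). SOL3, TKL1 and RPE1, further enzymes of that pathway, each had negative values on arrays 1 and 2 and a positive one on array 4, though counted from the array medians SOL3 and RPE1 were slightly positive on array 2. GND1, of the same pathway, was also negative on arrays 1 and 2 and had no value on array 4. These genes too were named after their values were seen.

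**Figure D5:**
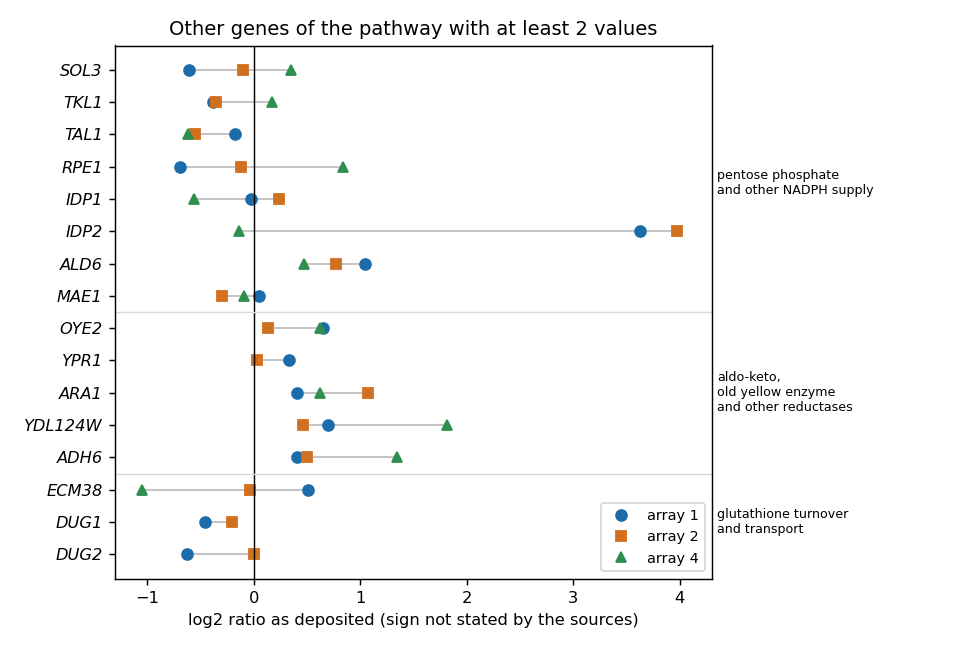
Log2 ratio as deposited (horizontal axis) of 16 further genes with at least 2 values, on arrays 1 (circles), 2 (squares) and 4 (triangles). They were listed under the pentose phosphate pathway and other NADPH supply, the aldo-keto, old yellow enzyme and other reductases, and glutathione turnover. All values of the 5 reductase genes are above 0, those of ALD6 lie between 0.47 and 1.05, and IDP2 lies at 3.62 and 3.97 on arrays 1 and 2 but at -0.14 on array 4.

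Of 8 regulators listed, 3 had at least 2 values, against 30.8% of all genes. YAP1, SKN7, MSN2 and MSN4 had no value. STB5, a regulator of NADPH-making genes, had 0.24 on array 1, -0.0077 on array 2 and -0.70 on array 4. CAD1, a relative of YAP1, had -0.24 on array 1 and -0.089 on array 2, and MOT3, a repressor, had 0.11 and 0.35. The median over these 3 genes was -0.15, with 1 positive, 1 negative and 1 on both sides. FLR1, a multidrug transporter gene under Yap1 control, had 0.39 on array 1 and 0.71 on array 2. Of the genes measured on that pair only, 18.9% were likewise positive on both. SNQ2, the other efflux gene with a value, had -0.039 on array 4 alone. Of the glutathione turnover genes, DUG1 had -0.46 and -0.21 and DUG2 -0.63 and -0.0017 on arrays 1 and 2. FLR1, DUG1 and DUG2 were not named by size. The 4 metallothionein and copper supply genes had no value.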

How the data were processed

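Each sample was a 2-colour array. The values table deposited by the authors holds log2 ratios, 1 per row and array. The sources used here do not give their log base, centring, direction, normalization, spot filter or tools, and base 2 was assumed. Signal intensities were not used, so the number of arrays limits the precision. Array 1, with swapped dyes, correlated positively with array 2 (r = 0.50) but hardly with array 4 (r = 0.049). All columns were read as running one way, and turning array 1 was an alternative.

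The RefSeq gene table (assembly R64) named 5654 of 6209 rows through a locus tag and 57 through a synonym, and 498 kept the file's name. Rows of one gene were averaged, giving 6174 genes. The series text has 2 cultures, each hybridised in both dye orientations (4 arrays), so arrays 2 and 4 came from different cultures and array 1 shared a culture with one of them. Limma 3.58.1 (R 4.3.3, lmFit and eBayes) tested 585 genes, once averaging arrays 1 and 2 and once arrays 1 and 4. The larger p was adjusted by Benjamini-Hochberg, with a threshold of 0.05. The fits had 1 residual degree of freedom per gene and 4.96 or 2.70 prior ones, and were tested on simulated data. P-values measure the spread between these arrays, part of which is technical.

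Members and lists were chosen with earlier results of these data known. All 35 genes are accounted for. Of the 64 further genes, the rule named those on one side on at least 2 arrays with a mean of at least 0.8 in size, and the regulators. Alternatives were the culture assignment, centring, scaling, moderation, the filter on missing values, the sign of array 1 and leaving out each array.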

Additional observations from a re-analysis of the deposited data

How the results depend on the processing

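The sources leave the culture of array 1 and the sign of the ratio unknown, and signal over background was not used here, so dim spots could not be told from bright ones. The count of antioxidant and NADPH supply genes past the threshold was 0 under each culture assignment, separate replicates, a dye term, centring, scaling, robust or no moderation and rows taken singly. It was 1 (GTT1) over genes with at least 2 values, and 0 to 2 with 1 array left out, where the 2 without array 4 were GTT1 and GRE2. Over all genes the count was 0, with 67 at an unadjusted p under 0.05. It was 2 with separate replicates, 2 with a dye term, 3 after scaling, 48 over genes with at least 2 values, and 0 to 209 with 1 array left out: 17 without array 1, 0 without array 2 and 209 without array 4, where 1863 genes were tested. The count of genes on one side on every array, 2 of 10, was 3 after centring, 4 with array 1 turned, 13 of 22 over genes with at least 2 values, and 4 to 15 after leaving out 1 array, a count over fewer arrays. The count at 2-fold was 0, and 2 at 1.5-fold. The median, -0.011 over the 10 genes, moved by less than the spread between arrays under every alternative, between -0.067 and 0.20. Some alternatives also changed the genes. The median was over 22 genes when at least 2 values were asked for (-0.00019) and without array 4 (0.0049). It was over 9 genes without GRE3 (0.059), an alternative added after seeing the data.

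Some means changed side. With array 1 turned, GRE2 had -0.16, GND2 -0.046, CCP1 0.15, TSA1 0.12, GRX2 0.068, TRX2 0.059, SOD1 0.024 and TRR2 -0.012, while GTT1 kept its side at 0.62 (limma adjusted p = 0.928). Counted from the array medians GSH1 had 0.10, and without array 2 it had 0.15. With 1 array left out, GRX5 ranged from -0.075 to 0.28, TRX2 from -0.28 to 0.0068, TSA1 from -0.20 to 0.019, SOD1 from -0.20 to 0.0030, SOD2 from -0.037 to 0.23 and GRE3 from -0.73 to 0.43. GTT1 ranged from 1.00 to 1.33 there. The cause was not tested. Each ratio already pairs treated with untreated cells of a culture, so the test against 0 used that pairing. No further pairing was possible, as there is only 1 group of ratios.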

Other observations

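IDP2, the cytosolic isocitrate dehydrogenase that makes NADPH, had a log2 ratio of 3.62 on array 1 and 3.97 on array 2 but -0.14 on array 4 (mean 2.48 ± 2.28, SD, n = 3 arrays, limma adjusted p = 0.460). Its mean was 3rd from the positive end of 585 genes. GRE3 likewise had its lowest value on array 4, and ECM38, which degrades glutathione, had 0.51 on array 1, -0.039 on array 2 and -1.05 on array 4. These are values chosen after they were seen, and no test compared the arrays.

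The row YOL150C, which carries the systematic number next to GRE2 (YOL151W) and has no entry in the RefSeq gene table, had 1.34 on array 1, 1.53 on array 2 and 1.08 on array 4 (mean 1.32 ± 0.22, SD, n = 3 arrays). GRE2 had 1.14 and 0.81 on the first 2 of these arrays, and DCP1, the neighbour listed after it, had -0.43 and -1.38. PAM17, a mitochondrial import gene next to CCP1, had -0.81, -0.24 and 0.15 on arrays 1, 2 and 4, where CCP1 had -0.90, -0.39 and -0.056. GPT2, on the other side of CCP1, had 0.24 on array 1 and -0.22 on array 2. Overlap of signal between neighbouring rows was not tested.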
